A study of Mus musculus with 3 samples.

Results

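The cells described here are monocyte-lineage cells of B16F10 melanoma tumours with a high transcript count of Cxcl9, a chemokine gene. They were chosen by their counts of unique molecular identifiers (UMIs), which tag single transcripts. Each had at least 1500 UMIs in all with under 10% from mitochondrial genes, at least 3 UMIs of Cxcl9, at least 10 of Lyz2 and at least 1 of Csf1r and Adgre1 together. Each also had fewer than 5 UMIs of Arg1 and fewer than 5 of Pf4, and none of Flt3 or Cd3e. The rule found 612 cells on day 3, 162 on day 7 and 151 on day 14, which is 925 of the 10243 cell barcodes in the 3 libraries. They are called Cxcl9-high cells below. Because Cxcl9 counts chose them, the difference in Cxcl9 between them and other cells is given by the rule and is not a result.

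C57BL/6 mice carried the melanoma line B16F10 under the skin, and on day 9 after inoculation received Pmel-1 cytotoxic T lymphocytes (CTLs), T cells specific for the melanocyte antigen gp100 that had been activated in culture. Tumours were taken 3, 7 or 14 days after the transfer, and CD45+ leukocytes of 3 mice were pooled in equal numbers into 1 library per day. The labels name both a cell sorter and magnetic beads for the CD45+ isolation. All 3 groups received the transfer, so no library of untreated tumours enters these comparisons. Later libraries came from older tumours, so day after transfer, tumour age and library cannot be told apart. With 1 library per day each group has no replicate, and neither tests nor p-values are given. Intervals are exact 95% intervals (Clopper-Pearson for shares, Poisson for sums, conditional for ratios) and cover counting error only.

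CXCL9 is one of the chemokines that bind CXCR3, a receptor carried by activated T and NK cells. Its gene is a classical target of interferon-gamma, which T and NK cells release and which signals through the receptor chains IFNGR1 and IFNGR2 and the kinases JAK1 and JAK2. The pathway acts through gamma-activated sites in promoters, and interferon regulatory factors act at interferon-stimulated response elements. In tumours, Cxcl9-expressing monocytes and macrophages are known for drawing in and restimulating T cells.

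The promoters of 3 genes are shown because Cxcl9 defines the cells, Gbp2 is the gene whose level followed Cxcl9 most closely, and Cxcl10 encodes the other CXCR3 ligand measured. Each line is the 250 bases before the RefSeq start site on build GRCm38.p6, 5′ to 3′ on the gene's strand, with matches to an interferon-stimulated response element core (GAAA, any 2 bases, GAAA) on either strand in capitals. Cxcl9 lies at chr5:92328080-92328329 (minus strand), Gbp2 at chr3:142620413-142620662 (plus strand) and Cxcl10 at chr5:92348890-92349139 (minus strand).
Cxcl9: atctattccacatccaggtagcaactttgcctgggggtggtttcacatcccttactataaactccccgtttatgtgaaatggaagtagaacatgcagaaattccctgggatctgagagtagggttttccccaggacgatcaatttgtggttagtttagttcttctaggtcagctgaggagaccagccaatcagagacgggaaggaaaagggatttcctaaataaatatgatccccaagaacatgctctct
Gbp2: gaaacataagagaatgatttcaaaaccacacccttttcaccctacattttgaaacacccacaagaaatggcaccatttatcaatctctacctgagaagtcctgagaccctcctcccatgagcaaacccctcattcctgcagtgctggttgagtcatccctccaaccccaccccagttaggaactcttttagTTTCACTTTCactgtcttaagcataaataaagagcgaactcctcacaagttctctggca
Cxcl10: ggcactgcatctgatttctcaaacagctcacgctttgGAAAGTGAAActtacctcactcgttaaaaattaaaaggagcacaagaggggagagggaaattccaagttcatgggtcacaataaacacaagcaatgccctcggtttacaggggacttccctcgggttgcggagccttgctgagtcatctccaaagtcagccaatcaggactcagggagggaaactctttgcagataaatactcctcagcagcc
The Gbp2 match, TTTCACTTTC, starts 59 bases before the start site, and the Cxcl10 match, GAAAGTGAAA, starts 213 bases before it. Neither the Cxcl9 window nor the 3 listed for Upp1 held these letters. No window of the 4 genes held the gamma-activated core TTCNNNGAA. None held the only NF-kappaB-type core searched (GGG, any 2 bases, TTTCC). Other forms of an NF-kappaB site were not searched, so their absence from these windows does not follow. Windows from 250 bases before to 50 after each start were searched on both strands, and matches to different motifs could overlap. Of all promoters in the table, 3.44% held the response element core, 8.30% TTCNNNGAA and 1.63% the NF-kappaB-type core. Cfb and Ly6i, the other genes given as markers of these cells, are named only.

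Cxcl9-high cells were most frequent on day 3. They made up 44.2% (41.6 to 46.8) of 1385 monocyte/macrophage cells on day 3, 16.2% (14.0 to 18.7) of 997 on day 7 and 11.2% (9.58 to 13.03) of 1346 on day 14. Monocyte/macrophage cells are here those passing both cell filters with at least 1 UMI of Csf1r and Adgre1 together and none of Cd3e. The share was 2.72-fold lower on day 7 than on day 3 (2.28 to 3.25) and 1.45-fold lower on day 14 than on day 7 (1.15 to 1.82). Of all cells passing the filters, which numbered 2719, 2577 and 2843, Cxcl9-high cells were 22.5%, 6.29% and 5.31%. On that denominator the interval of the step from day 7 to day 14 included 1 (1.18-fold lower, 0.942 to 1.49).

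**Figure D1:**
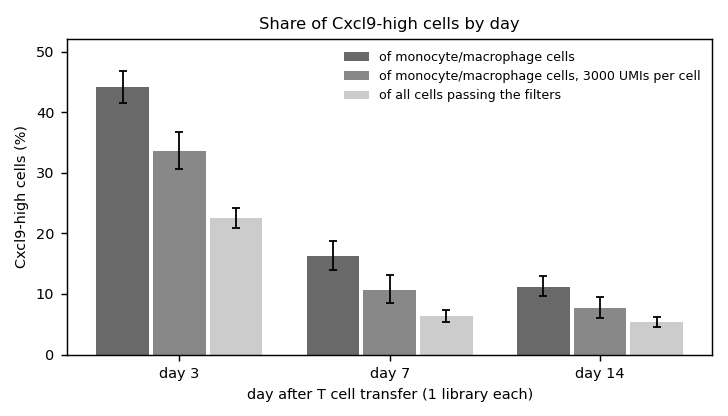
Share of Cxcl9-high cells (percent, vertical axis) on days 3, 7 and 14 after transfer, 1 library each, over 3 denominators; error bars are exact 95% counting intervals. In every denominator the day 3 bar is the tallest, at 44.2% of monocyte/macrophage cells against 16.2% and 11.2%.

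Depth moved the level of the share but not the order of the days. Members had a median of 10730.5, 11400.5 and 12335 UMIs per cell on days 3, 7 and 14, and cells with no Cxcl9 UMI had 9933.5, 10378 and 11521.5. With every cell thinned to 3000 UMIs before the rule was applied, the share of monocyte/macrophage cells was 33.6%, 10.7% and 7.64%, and the interval of the step from day 7 to day 14 included 1 (1.40-fold lower, 0.997 to 1.96). Thinning left out 249, 202 and 253 shallower cells. Barcodes found in more than 1 library numbered 3 of 612, 8 of 162 and 1 of 151 among the members, and the shares without them were 44.98%, 15.98% and 11.3%. Doublet scores marked 4, 4 and 1 members, and the shares without marked cells were 44.4%, 16.1% and 11.3%.

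Within the members, the amount of Cxcl9 per cell was also highest on day 3. The median member held 33 Cxcl9 UMIs on day 3, 18.5 on day 7 and 15 on day 14, with highest values of 305, 179 and 237. Members with at least 100 Cxcl9 UMIs numbered 80 on day 3, 7 on day 7 and 5 on day 14. Over all members, Cxcl9 stood at 4307, 2217 and 1944 UMIs per 1000000 UMIs of the group (CPM). Members held 71.6%, 60.3% and 49.5% of all Cxcl9 UMIs of their library.

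**Figure D2:**
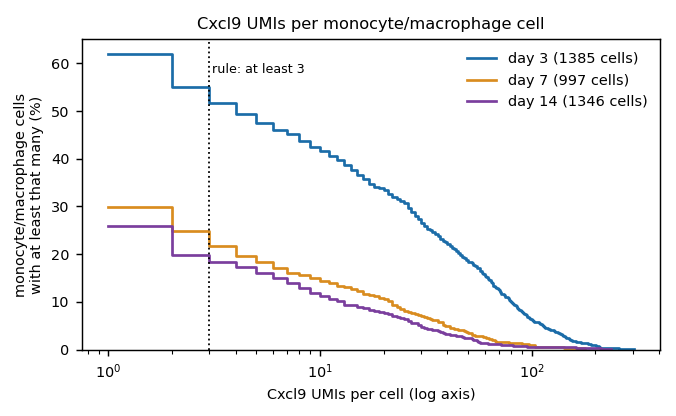
Percent of monocyte/macrophage cells (vertical axis) holding at least the number of Cxcl9 UMIs on the horizontal log axis, one line per day; the dotted line marks the rule's minimum of 3. At 3 UMIs the lines stand at 51.7%, 21.7% and 18.4% on days 3, 7 and 14.

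Few members sat at the threshold. Those with exactly 3 Cxcl9 UMIs numbered 26, 13 and 12, against 30, 19 and 9 cells that met every other condition with exactly 2. Cells with exactly 3 and exactly 2 Cxcl9 UMIs held 429 and 128 CPM of Ly6i on day 3, 364 and 95.7 on day 7, and 416 and 99.1 on day 14. For Gbp2 the order at the threshold was not the same on each day, at 2088 and 2788 CPM on day 3, 882 and 962 on day 7, and 1242 and 811 on day 14. Upp1 stood at 506 (430 to 592) and 519 (445 to 602) CPM on day 3, with intervals that overlap. It stood at 40.4 and 205 CPM on day 7, and at 143.0 and 225 CPM on day 14. Cfb stood at 279 and 163 CPM, 148 and 264 CPM, and 117 and 162 CPM.

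Cxcl9 UMIs from free RNA were gauged in cells that should not make the chemokine. T cells held at least 2 Cd3e UMIs, and NK cells at least 1 of Ncr1 and none of Cd3e. Both held no Csf1r or Adgre1 UMI and fewer than 10 of Lyz2. Neutrophils held at least 20 S100a8 UMIs and no Csf1r, Adgre1 or Cd3e UMI, with no limit on Lyz2. The Lyz2 limit left out T and NK cells with much myeloid RNA, so their Cxcl9 values can understate free RNA. In T cells, at least 3 Cxcl9 UMIs were found in 1.14%, 0.452% and 0.847% of 439, 664 and 590 cells, with median depths of 9591, 10053 and 8184 UMIs. At least 1 Cxcl9 UMI was found in 12.1%, 2.41% and 3.56% of them, against 62.0%, 29.8% and 25.9% of monocyte/macrophage cells, whose median depths were 10561, 10797 and 12081.5 UMIs. In NK cells none of 174, 383 and 155 cells reached 3 UMIs, which allows shares of up to 1.72%, 0.783% and 1.94% at 3 counts of the total, with median depths of 4962, 6065 and 5730 UMIs. At least 3 UMIs were found in 51.7%, 21.7% and 18.4% of monocyte/macrophage cells. The share at the rule's threshold was thus lower in these T cells and NK cells on each day. The T cells were of near depth on days 3 and 7 but shallower on day 14, and the NK cells were shallower on each day. Neutrophils, with median depths of 2304, 2468 and 2465 UMIs, held 66.2, 35.3 and 0 CPM of Cxcl9. T cells held 19.6, 5.57 and 9.05 CPM. At least 3 UMIs were found in 2.04% of 49 neutrophils on day 3, and in none of 43 and 85 on days 7 and 14.

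The monocyte part of the working name was checked against markers. The 7 classical monocyte markers (Ly6c2, Ccr2, Chil3, Plac8, Hp, F13a1 and Vcan) summed to 7951, 6790.2 and 6243 CPM in the members. They summed to 6426, 6224 and 4843 CPM in all monocyte/macrophage cells with no Cxcl9 UMI, and to 9123, 7643 and 7179 CPM in those that met every other condition of the rule. The members thus lay above the former and below the latter on each day.
The 8 macrophage markers outside the rule (Mrc1, Apoe, Trem2, C1qa, C1qb, C1qc, Mertk and Maf) summed to 1739, 1736 and 2757 CPM in the members and 3124, 2266 and 3619 CPM in all Cxcl9-negative cells. In those meeting every other condition they summed to 1659, 1853 and 2069 CPM, so the members were not lower than these on days 3 and 14. All these markers were detected in the members on each day.
At 3000 UMIs per cell, 58.6%, 53.5% and 30.2% of members held Ly6c2 without C1q genes, and 7.73%, 5.66% and 18.1% held C1q genes without Ly6c2. Both were found in 21.2%, 23.3% and 28.2%. Neither was found in 12.5%, 17.6% and 23.5%. The members of day 14 thus held a smaller share of cells with Ly6c2 alone than those of days 3 and 7. Their label as monocytes rests on fewer such cells. That share was also lowest on day 14 in Cxcl9-negative cells meeting every other condition, at 67.0%, 61.0% and 44.3%. Both Ly6c2 and C1q genes were found in 12.5%, 10.6% and 8.54% of those cells.

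Genes were compared with 2 sets of Cxcl9-negative cells of the same library. The first was every monocyte/macrophage cell with no Cxcl9 UMI (526, 700 and 998 cells), and the second the subset that met every other condition of the rule (341, 457 and 497 cells), called gate-matched below. UMIs were summed per group and library and divided by the group's total. A gene was measured with at least 20 UMIs over both groups, and passed the size rule at 1.5-fold or more with an interval excluding 1. Against all Cxcl9-negative cells, 161 of 9514 genes measured in all 3 libraries were higher by this rule in each of them (1.69%) and 241 were lower (2.53%). By day, 5.55%, 4.48% and 5.17% of genes measured were higher on days 3, 7 and 14, and 13.9%, 7.04% and 7.94% lower. With cells thinned to 3000 UMIs, 95 genes were higher and 60 lower on all 3 days, which turns the balance between them. Without the day 7 library 293 genes were higher and 474 lower in both others. Against gate-matched cells the numbers over all 3 days were 138 (1.56%) and 170 (1.93%) of 8830, with 97 higher and 83 lower in both comparisons. By day, 5.8%, 4.22% and 4.7% were higher than in gate-matched cells and 8.58%, 5.93% and 7.04% lower. These contrasts are the ones the rule used, so the genes below describe the members and no test of difference is given.

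The 4 given markers other than Cxcl9 were higher in members on every day. Gbp2, an interferon-inducible GTPase of cell-autonomous defence, stood at 3966, 1668 and 1812 CPM in members on days 3, 7 and 14 and at 1235, 495 and 283 CPM in Cxcl9-negative cells. The ratios were 3.21 (3.13 to 3.30), 3.37 (3.21 to 3.53) and 6.40 (6.12 to 6.71). Ly6i, a small surface protein of the Ly6 family, stood at 483, 274 and 338 CPM in members and 62.7, 75.9 and 50.7 CPM in Cxcl9-negative cells.
Cfb encodes complement factor B, the protease component of the alternative pathway convertase. It stood at 557, 249 and 235 CPM in members and 82.7, 82.0 and 47.9 CPM in Cxcl9-negative cells, with 13.9% of its day 14 UMIs in 1 cell. Upp1, uridine phosphorylase, stood at 994, 208 and 263 CPM and 217, 125 and 92.2 CPM. For Ly6i, Cfb and Upp1 the ratio was largest on day 3 and smallest on day 7, at 3.61 (3.21 to 4.07), 3.03 (2.69 to 3.42) and 1.67 (1.48 to 1.87). Of the members, 99.8%, 95.7% and 95.4% held at least 1 Gbp2 UMI.

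**Figure D3:**
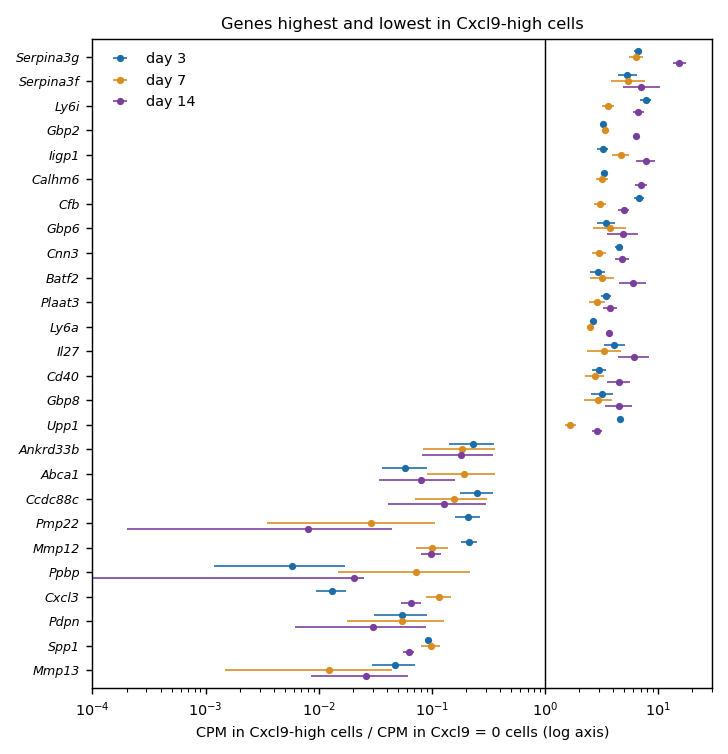
Ratio of CPM in Cxcl9-high cells to CPM in Cxcl9-negative monocyte/macrophage cells (horizontal log axis) for the 15 highest and 10 lowest genes and Upp1, with exact 95% intervals, one point per day; lines that reach the left edge continue beyond it. Serpina3g on day 14 lies farthest right at 15.2, and Spp1 lies at 0.0924, 0.0974 and 0.0621; 0 counts are drawn at a floor of 3 counts.

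Among the other genes with the highest ratios, Serpina3g, an intracellular serine protease inhibitor of the serpin family, stood at 694, 278 and 381 CPM in members and 105, 43.7 and 25.01 CPM in Cxcl9-negative cells. Its neighbour in the family Serpina3f stood at 116, 43.6 and 31.2 and 21.8, 8.10 and 4.45 CPM. Calhm6, a channel-family protein of activated macrophages, stood at 745, 264 and 283 and 227, 82.6 and 40.6 CPM. Each of these 3 genes had its largest ratio on day 14, at 15.2, 7.03 and 6.96. Ly6a, another Ly6 family member, held a similar level over the days at 1096, 1047 and 1228 CPM in members against 410.3, 417 and 339 CPM. Cnn3, an actin-binding calponin, and Plaat3, a phospholipase, had ratios of 4.45, 2.97 and 4.79 and of 3.44, 2.88 and 3.73. Members of the Ly6, Serpina3, Gbp and Tgtp families have near-identical copies. Reads that match several copies could be lost or misplaced in the authors' counting, so the single values of these genes are uncertain. The H2 and Hspa1 genes carry the same limit.

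The interferon-inducible GTPases had the largest share of higher genes among the 20 lists: 13 of 16 measured were higher on all 3 days and none lower. They include Gbp2, Gbp2b, Gbp3 to Gbp9, Igtp, Iigp1, Tgtp2 and Ifi47, proteins that attack the membranes of intracellular microbes. The median log2 ratio of the list was 1.02, 1.14 and 2.10 on days 3, 7 and 14, against -0.12, -0.00 and -0.04 over all genes measured. Against gate-matched cells 9 of 16 were higher, and the medians were 0.64, 0.90 and 1.45.
Iigp1, an immunity-related GTPase, stood at 231, 151 and 122 CPM in members against 71.8, 32.4 and 15.7 CPM. Gbp5, known for promoting inflammasome assembly, stood at 167, 96.2 and 80.3 CPM against 94.2, 41.7 and 19.2 CPM. Irgm1, a regulator of the other GTPases, did not pass on day 3 at 1.44 (1.33 to 1.56), and against gate-matched cells its ratios were 1.05 (0.961 to 1.15), 1.31 (1.13 to 1.53) and 1.64 (1.32 to 2.02). The list's median ratio was larger on day 14 than on day 3, when the Cxcl9-negative cells themselves had more of these transcripts: their Gbp2 level was 1235 CPM on day 3 and 283 CPM on day 14.

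Of 18 genes for the interferon-gamma receptor and its signalling, 5 were higher on all 3 days and none lower against all Cxcl9-negative cells, and 2 were higher and 1 lower against gate-matched cells. Batf2, an interferon-induced transcription factor, had ratios of 2.90 (2.51 to 3.37), 3.16 (2.47 to 4.04) and 5.94 (4.50 to 7.84). Ciita, the master regulator of MHC class II genes, stood at 92.6, 116 and 86.5 CPM against 51.1, 53.4 and 35.4 CPM, and Irf8, a factor of monocyte and dendritic cell development, at 1374, 624 and 639 CPM against 782, 376 and 294 CPM.
Not all of the pathway was higher. Irf1, an interferon regulatory factor, stood at 570.4, 369 and 206 CPM in members and 675, 357 and 189.8 CPM in gate-matched cells, ratios of 0.845 (0.802 to 0.890), 1.03 (0.945 to 1.13) and 1.09 (0.969 to 1.22). Socs1, the feedback inhibitor of JAK kinases, had gate-matched ratios of 0.926 (0.846 to 1.01), 1.67 (1.43 to 1.93) and 2.21 (1.77 to 2.77), so it passed on days 7 and 14 and not on day 3. The receptor chain Ifngr1 was lower in members, at 96.0, 166 and 158 CPM against 197, 307 and 288 CPM in gate-matched cells, ratios of 0.487 (0.437 to 0.543), 0.540 (0.478 to 0.609) and 0.547 (0.484 to 0.616). Its partner Ifngr2 stood at 101, 122 and 94.2 CPM against 94.4, 112 and 92.1 CPM and did not pass on any day.

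Genes of the type I interferon response were higher to a smaller extent: 6 of 24 measured passed on all 3 days in either comparison and none were lower. Isg15, a ubiquitin-like modifier, stood at 1059, 672 and 458 CPM in members and 407, 441 and 214 CPM in Cxcl9-negative cells. Rsad2, the antiviral protein viperin, stood at 282, 340.2 and 231 CPM against 176, 325 and 163 CPM, and passed on day 3 only against these cells. Against gate-matched cells its ratios were 2.28 (2.05 to 2.54), 1.46 (1.33 to 1.61) and 2.47 (2.18 to 2.80). The list's median log2 ratio was 0.73, 0.43 and 0.93, below that of the GTPases on each day.

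Outside the rule, 2 of 16 measured chemokine genes were higher on all 3 days and 6 lower. Cxcl10, the other CXCR3 ligand, stood at 3549, 2868 and 1671 CPM in members and 2020.2, 790.5 and 394 CPM in Cxcl9-negative cells, ratios of 1.76 (1.72 to 1.80), 3.63 (3.50 to 3.76) and 4.24 (4.06 to 4.43). On day 3 gate-matched cells held 2777 CPM and the ratio of 1.28 (1.25 to 1.31) did not pass. Cxcl16, the ligand of CXCR6, stood at 249, 222 and 219.6 CPM against 91.4, 110.0 and 112 CPM.
The 6 lower genes were Cxcl2, Cxcl3, Ccl3, Ccl7, Ccl8 and Ccl9. Cxcl2, a neutrophil attractant, stood at 1846, 2114 and 2981 CPM in members and 4997, 4260.5 and 7135 CPM in Cxcl9-negative cells. Cxcl3, of the same group, stood at 6.12, 33.6 and 47.6 CPM against 473, 290.0 and 724 CPM. Against gate-matched cells Cxcl3 and Ccl9 were the 2 lower on all 3 days, and Cxcl16 and Ccl22 the 2 higher. Ccl2, the main monocyte attractant, had ratios of 0.915 (0.887 to 0.945), 0.872 (0.837 to 0.907) and 0.858 (0.823 to 0.894). Ccl5, a T cell attractant, was uneven: 296, 124 and 209 CPM in members and 158, 173 and 105 CPM in Cxcl9-negative cells, with 22.1% of the day 14 UMIs of members in 1 cell.

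Of 20 class I genes, 8 were higher on all 3 days and none lower. They were Tapbp, Tapbpl, the peptide transporters Tap1 and Tap2, the immunoproteasome subunits Psmb8, Psmb9 and Psmb10, and the proteasome activator Psme2. Psmb8 stood at 1420.5, 1214 and 1203 CPM in members and 798, 669.8 and 558 CPM in Cxcl9-negative cells. The class I light chain B2m was closer between the groups, at 2289.9, 2179.7 and 2013 CPM against 1609.9, 1972 and 1508 CPM, and did not pass on any day.
For class II, 2 of 12 genes (H2-DMa and H2-DMb1, which load peptide) were higher on all 3 days and 1 (Lgmn, a lysosomal protease) lower. Against gate-matched cells 4 were higher and none lower. H2-Aa, a class II chain, stood at 2574, 3776 and 4933 CPM in members, 1649, 2539.5 and 2818 CPM in gate-matched cells and 1195, 1600.4 and 1600.1 CPM in Cxcl9-negative monocytes chosen by Ly6c2 and Chil3. The level in members thus lay above both on each day. Of the 12 class II genes, 9, 7 and 9 were higher in members than in those monocytes on days 3, 7 and 14, where 6.22%, 5.02% and 5.4% of all genes measured were higher and 9.22%, 6.49% and 8.25% lower.

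Among genes whose products act on T and NK cells, 6 of 23 measured were higher on all 3 days and 1 lower. The higher genes were Cd40, the costimulatory receptor for CD40 ligand, Fas, Il15ra, which presents IL-15, Il18bp, the decoy of IL-18, Slamf8, and Il27, a cytokine subunit. Il27 stood at 80.5, 33.6 and 41.3 CPM in members and 19.7, 10.1 and 6.83 CPM in Cxcl9-negative cells, and Cd40 at 126, 89.2 and 66.3 CPM and 42.4, 32.5 and 14.9 CPM. Il18bp stood at 118, 55.1 and 70.2 CPM against 42.2, 31.4 and 20.7 CPM. The single lower gene was Tnfsf9, the ligand of 4-1BB. Against gate-matched cells 9 of 22 were higher and 1 (Vsir) lower.
Cd274, encoding the checkpoint ligand PD-L1, stood at 628, 347 and 309 CPM in members, 283, 270.5 and 175 CPM in all Cxcl9-negative cells and 319, 212 and 149.7 CPM in gate-matched cells. It passed on days 3 and 14 against the former, and on all 3 days against the latter, at 1.97 (1.84 to 2.11), 1.64 (1.49 to 1.81) and 2.06 (1.86 to 2.29). Pdcd1lg2, encoding PD-L2, had gate-matched ratios of 3.60 (2.82 to 4.66), 2.36 (1.56 to 3.58) and 2.78 (2.04 to 3.78). The costimulatory ligand Cd86 had ratios of 1.39 (1.29 to 1.49), 1.33 (1.21 to 1.47) and 1.36 (1.23 to 1.52) and passed on no day against gate-matched cells. Cd80 passed on no day either, at 0.785 (0.649 to 0.951), 0.928 (0.738 to 1.16) and 0.741 (0.576 to 0.944).

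Antimicrobial and nutrient metabolism genes outside the rule were higher on all 3 days in 5 of 17 cases and lower in none. Ass1, the arginine-regenerating enzyme argininosuccinate synthase, stood at 349.7, 264 and 259 CPM in members and 93.1, 119 and 93.4 CPM in Cxcl9-negative cells. Acod1, which makes itaconate, stood at 535, 278 and 251 CPM against 299, 136 and 82.2 CPM. Ch25h, which makes the oxysterol 25-hydroxycholesterol, stood at 77.5, 19.0 and 16.3 CPM against 8.34, 1.59 and 3.73 CPM.
Nos2, the inducible nitric oxide synthase, was highest on day 3 in these cells. It stood at 142, 23.1 and 47.1 CPM in members, 33.4, 51.0 and 42.3 CPM in all Cxcl9-negative cells and 13.8, 26.0 and 4.38 CPM in gate-matched cells. After thinning, 15.5%, 2.52% and 5.37% of members held a Nos2 UMI (21.6%, 3.70% and 10.6% before thinning), and 1 cell held 43.5% of the 46 Nos2 UMIs of day 7. Sod2, the mitochondrial superoxide dismutase, was higher on each day at 1297, 626 and 679.6 CPM against 431, 313 and 293 CPM. Of 16 inflammatory cytokine genes, 2 (Sod2 and the adhesion molecule Icam1, both on that list) were higher on all 3 days; Il1b, encoding IL-1 beta, stood at 4899, 4687 and 3514 CPM against 3698, 4078 and 3429 CPM and did not pass.

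Of 18 classical monocyte genes measured, 2 were higher on all 3 days (Ly6i and Ly6a) and 2 lower (F13a1 and Fn1) against all Cxcl9-negative cells. Ly6c2, the surface antigen of inflammatory monocytes, stood at 1181, 1031 and 658 CPM in members, 818, 734 and 344 CPM in all Cxcl9-negative cells and 1284, 892 and 519 CPM in gate-matched cells. Ccr2, the receptor by which monocytes leave the marrow, had gate-matched ratios of 0.747 (0.713 to 0.783), 0.900 (0.849 to 0.954) and 0.901 (0.847 to 0.958). Plac8 was alike in level, at 4717, 3398 and 3788 CPM against 4855, 3458 and 3673 CPM.
Other genes of recent monocytes were lower than in gate-matched cells. Hp, haptoglobin, stood at 193, 195 and 172 CPM in members against 419, 409 and 385 CPM, and F13a1, coagulation factor XIII, at 182, 197 and 107 CPM against 420.3, 402 and 341 CPM. Fn1, fibronectin, had ratios of 0.474 (0.447 to 0.502), 0.532 (0.489 to 0.577) and 0.497 (0.459 to 0.538). No non-classical monocyte gene was higher on all 3 days, and 5 of 8 measured were lower than in gate-matched cells on all 3 days, among them Cx3cr1, the fractalkine receptor, at 7.26, 32.1 and 5.29 CPM against 32.9, 69.4 and 37.8 CPM.

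Of 15 macrophage genes outside the rule, 5 were lower on all 3 days and none higher, and 2 (Mrc1 and Apoe) were also lower than in gate-matched cells. Apoe, the lipid carrier apolipoprotein E, stood at 431, 484 and 535 CPM in members, 1147, 819.8 and 1283 CPM in all Cxcl9-negative cells and 793, 815 and 889 CPM in gate-matched cells. Mrc1, the mannose receptor, stood at 18.2, 44.1 and 32.2 CPM in members against 71.1, 75.6 and 62.7 CPM in gate-matched cells.
The C1q genes, often used to mark macrophages, depended on the comparison. C1qa stood at 285, 233 and 533 CPM in members, 446, 281 and 564 CPM in all Cxcl9-negative cells and 168, 218 and 290.3 CPM in gate-matched cells. Its day 3 ratio was thus 0.639 (0.602 to 0.677) against the former and 1.70 (1.55 to 1.87) against the latter.
Of 17 lipid and lysosome genes, 9 were lower on all 3 days and none higher; against gate-matched cells 3 were lower and Lpl, lipoprotein lipase, was higher. Spp1, the secreted phosphoprotein osteopontin, stood at 154, 56.6 and 166 CPM in members, 1662, 581 and 2676 CPM in all Cxcl9-negative cells and 451, 292 and 758 CPM in gate-matched cells. Abca1, the cholesterol exporter, stood at 3.13, 5.01 and 3.84 CPM in members and 54.0, 26.3 and 48.2 CPM in Cxcl9-negative cells.
The genes farthest below the Cxcl9-negative cells also included the matrix proteases Mmp13 (3.28, 1.002 and 2.40 CPM against 70.0, 81.7 and 91.4) and Mmp12 (28.8, 21.0 and 45.2 CPM against 136, 208 and 459.5). Pdpn, the membrane glycoprotein podoplanin, had ratios of 0.0549 (0.0309 to 0.0909), 0.0547 (0.0176 to 0.129) and 0.0299 (0.00615 to 0.0879). Pmp22 did not keep its direction: on day 3 it stood at 11.4 CPM in members, 54.8 CPM in all Cxcl9-negative cells and 4.997 CPM in gate-matched cells. The rule removes Arg1-high and Pf4-high cells from the members but not from the full comparison set, where Arg1 stood at 1288, 737 and 1869.7 CPM.

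**Figure D4:**
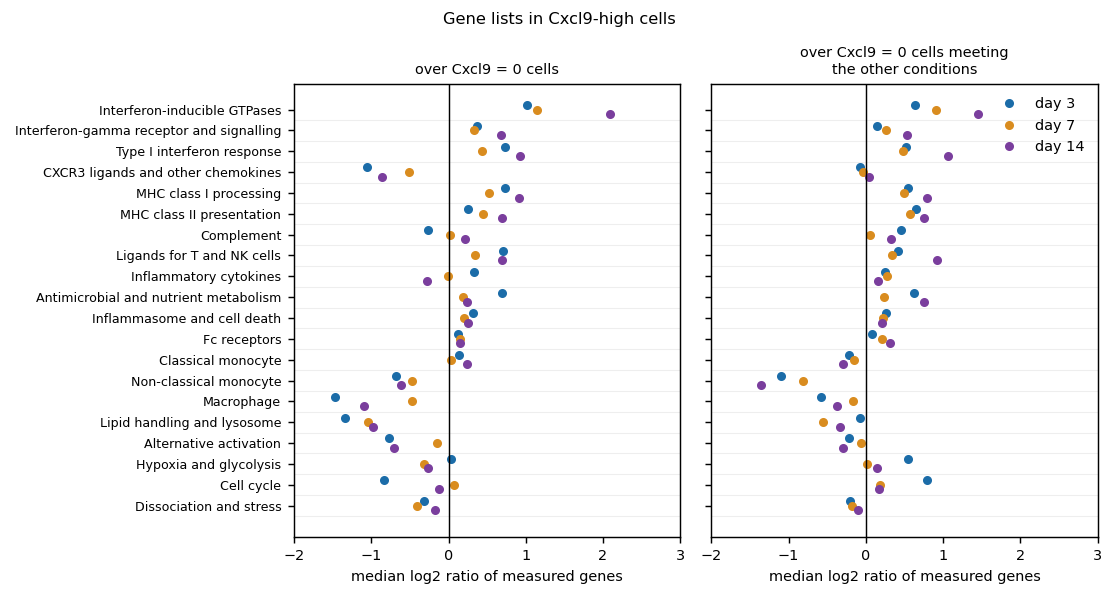
Median log2 ratio (horizontal axis) of the measured genes of 20 lists in Cxcl9-high cells, over all Cxcl9-negative cells (left panel) and over those meeting the other conditions of the rule (right panel), one point per day. The interferon-inducible GTPases lie farthest right in both panels on days 7 and 14, and the macrophage and lipid lists move toward 0 in the right panel.

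Markers of other cell types were also summed. Summed T cell markers stood at 31.2, 46.1 and 51.9 CPM in members and 75.6, 58.2 and 47.9 CPM in Cxcl9-negative cells, with Cd4 at 0 in members on every day. Neutrophil markers stood at 120, 284 and 75.5 CPM against 685, 370 and 597 CPM, and on day 7 a single cell held 180 of the 183 S100a9 UMIs of the members. Melanoma markers stood at 30.3, 27.6 and 23.5 CPM, and erythroid markers at 0.855, 0 and 0 CPM in members against 786, 0.133 and 0.238 CPM.
Dendritic cell markers stood at 56.1, 158 and 52.9 CPM in members, 90.4, 115 and 109 CPM in all Cxcl9-negative cells and 33.8, 58.6 and 59.3 CPM in gate-matched cells. They were thus higher in members than in gate-matched cells on days 3 and 7, with Siglech and Flt3 at 0 on every day (none of Flt3 by the rule).
NK cell markers stood at 157, 139 and 96.1 CPM in members and 285, 225 and 63.6 CPM in all Cxcl9-negative cells. In gate-matched cells they stood at 80.5, 215 and 41.1 CPM, below the members on days 3 and 14 and above them on day 7. Klrk1, 1 of these markers, was higher in members than in all Cxcl9-negative cells on all 3 days. It stood at 111, 110.2 and 84.1 CPM against 66.2, 55.3 and 29.7 CPM. Ncr1, Klrb1c and Eomes were at 0 in members on day 14. The part of other cells in the gene ratios was not tested.

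The levels of Gbp2, Upp1 and Ly6i were higher in each successive bin of Cxcl9 UMIs per cell on day 3, which had the most members. In cells meeting the other conditions, Gbp2 stood at 1751, 2479, 2846, 3784, 4206 and 4847 CPM in cells with 0, 1 or 2, 3 to 9, 10 to 29, 30 to 99 and 100 or more Cxcl9 UMIs. On day 7 the same bins gave 573, 972, 1064, 1530.0, 2439 and 2378 CPM, and on day 14 they gave 428, 595, 1358, 1813, 2016 and 6135 CPM. The highest bin held 80 cells on day 3 but only 7 and 5 on days 7 and 14, and without it the Gbp2 values of days 7 and 14 were higher in each successive bin. Upp1 was not ordered that way on the later days, at 104, 174, 198, 143 and 271 CPM in the first 5 bins on day 7 and 83.2, 138, 177, 356 and 268 CPM on day 14.
Cfb on day 3 went from 99.3 CPM in cells with no Cxcl9 UMI to 875 CPM in the highest bin, with a lower value in the fourth bin (372) than in the third (408). Irf1 went the other way on day 3, from 675 CPM in the first bin and 695 in the second to 529.8 in the last. Ly6c2 was nearly level on day 3, between 1131 and 1325 CPM. These bins share their library and their cells differ in depth, so the series are descriptions.

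**Figure D5:**
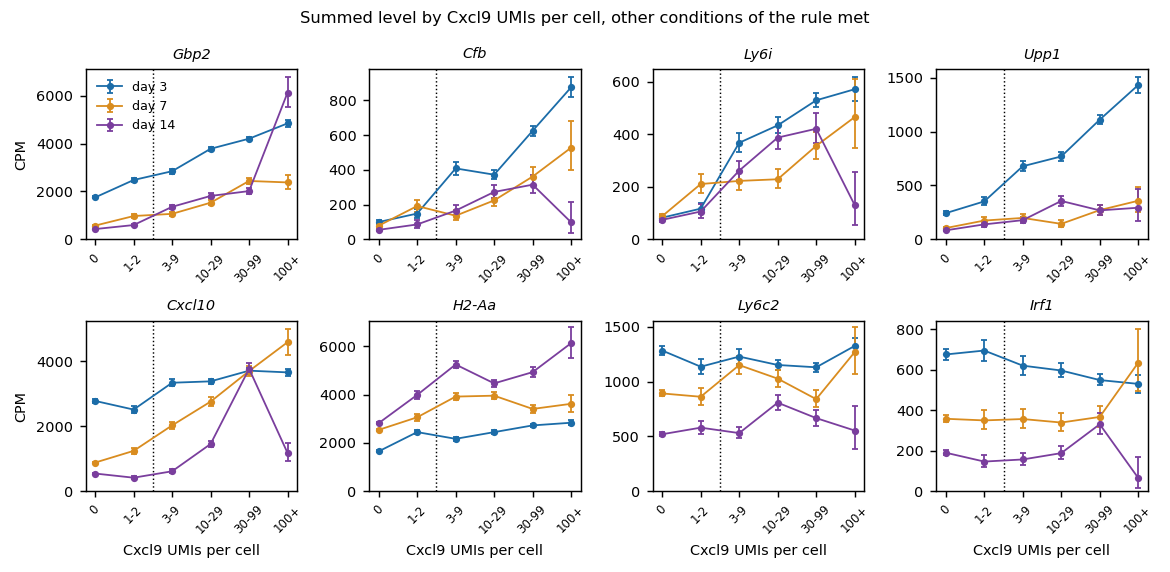
Summed level (CPM, vertical axis) of 8 genes in cells meeting the other conditions of the rule, by Cxcl9 UMIs per cell (horizontal axis), one line per day, with exact 95% Poisson intervals; the dotted line marks the rule's threshold. Gbp2, Cfb and Upp1 climb with Cxcl9 on day 3, Irf1 does not, and the last bin rests on 80, 7 and 5 cells.

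By rank correlation over single monocyte/macrophage cells (1385, 997 and 1346 cells on days 3, 7 and 14), the gene most like Cxcl9 was Gbp2, with Spearman's rho of 0.60, 0.42 and 0.47. Serpina3g followed at 0.56, 0.38 and 0.48 and Slamf8 at 0.54, 0.37 and 0.39. Next by the lowest of the 3 values came Psmb8, Psme2, Cnn3, Psme1 and Plaat3. The cells of a day share a library and differ in depth, so no p is given.
Promoter letters were counted over the same genes. Of 126 genes higher on all 3 days with a promoter in the RefSeq table, 22 (17.5%) held the response element core, against 14 of 184 lower genes (7.61%) and 324 of 7575 measured genes (4.28%). TTCNNNGAA was held by 18 of 126 (14.3%), 14 of 184 (7.61%) and 629 of 7575 (8.30%). A match is a description of the letters and not of binding.

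The members of different days were compared with each other. From day 3 to day 7, 645 of 9276 measured genes were higher by the size rule (6.95%) and 452 lower (4.87%), and from day 7 to day 14, 223 (2.72%) and 487 (5.94%) of 8198. From day 3 to day 14, 782 of 9325 were higher (8.39%) and 768 lower (8.24%). The split depended on the scaling: with TMM factors it was 465 higher and 598 lower for day 7 over day 3, and 649 and 890 for day 14 over day 3. Outside mitochondrial and ribosomal genes, 974 were higher and 607 lower for day 14 over day 3. Ribosomal genes took 12.6%, 14.5% and 16.6% of the members' UMIs on days 3, 7 and 14, and their part in the day differences was not tested. The 3 comparisons share libraries, so they are given side by side.

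The given markers were lower on day 7 than on day 3. Gbp2 in members went from 3966 CPM on day 3 to 1668 and 1812 CPM, a ratio of 0.421 (0.406 to 0.436) for day 7 over day 3 and 1.09 (1.04 to 1.14) for day 14 over day 7. Upp1 had ratios of 0.210 (0.190 to 0.232) and 1.26 (1.11 to 1.44). All 4 markers other than Cxcl9 were lower by the size rule on day 7, and none passed between days 7 and 14. In Cxcl9-negative cells the same step from day 3 to day 7 gave ratios of 0.401 (0.385 to 0.417) for Gbp2 and 0.576 (0.529 to 0.627) for Upp1. The other markers were not lower there: by the levels given above, Ly6i was higher on day 7 and Cfb nearly level.
The lower level was also seen at a like amount of Cxcl9. In cells with 10 to 29 Cxcl9 UMIs, which numbered 179, 54 and 51, Gbp2 stood at 3784, 1530.0 and 1813 CPM and Upp1 at 769, 143 and 356 CPM.

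The GTPase list had 0 higher and 11 lower of 18 measured from day 3 to day 7 in members, with a median log2 ratio of -0.75. From day 7 to day 14 it had 0 higher and 1 lower of 16, with a median of -0.23. Of all genes measured in members, 6.95% were higher and 4.87% lower at the first step, and 2.72% and 5.94% at the second. In Cxcl9-negative cells 13 of 17 were lower at the first step (background 5.01%) and 15 of 16 at the second (background 6.24%, with 5.88% higher), with medians of -0.81 and -1.10. The second step was thus small in members and larger in the full set of cells without Cxcl9. Arg1-high cells, which the rule bars from members, were 124 of that set's 700 cells on day 7. On day 14 they were 321 of 998. Their part in the step was not tested, and the list's step in gate-matched cells is not given here. For type I interferon genes the first step gave 2 lower and 0 higher of 24 in members, against 7 higher and 0 lower in Cxcl9-negative cells (3.34% of all genes there were higher). The medians of that step were -0.14 in members, 0.22 in all Cxcl9-negative cells and -0.09 in gate-matched cells, so the difference was seen against the full set. The second step gave 9 of 24 lower in members and 21 of 24 in Cxcl9-negative cells. Irf1 in members stood at 570.4, 369 and 206 CPM and Isg15 at 1059, 672 and 458 CPM, both lowest on day 14.

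MHC class II genes went the opposite way. From day 3 to day 14, 6 of 12 were higher in members and none lower, with a median log2 ratio of 0.69. Of all genes measured in members, 8.39% were higher and 8.24% lower. In Cxcl9-negative cells 4 of 12 were higher, with a median of 0.52 (2.99% of all genes there were higher and 6.5% lower). H2-Aa went from 2574 CPM on day 3 to 4933 CPM on day 14, a ratio of 1.92 (1.87 to 1.96), and the invariant chain Cd74 from 6420.4 to 9874 CPM, 1.54 (1.51 to 1.56). H2-DMb2 went from 18.1 to 70.6 CPM, 3.91 (3.06 to 4.99). At 10 to 29 Cxcl9 UMIs per cell, H2-Aa stood at 2446, 3957 and 4467 CPM. The C1q gene C1qc stood at 245, 177 and 455 CPM, and 2.57 (2.27 to 2.91) times as high on day 14 as on day 7.

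Among the genes with the largest day differences, Inhba, Il1rn, Ch25h, Vcam1, Clic5 and Edn1 were lower on days 7 and 14 than on day 3. Inhba, encoding the activin A subunit, stood at 274, 145 and 56.2 CPM, Il1rn, the IL-1 receptor antagonist, at 658, 351 and 182 CPM and Ch25h at 77.5, 19.0 and 16.3 CPM. Vcam1, an adhesion molecule, had 197, 4 and 7 UMIs, and Clic5, a chloride channel protein, 406, 7 and 35. Edn1, encoding the vasoconstrictor endothelin, had 262 UMIs on day 3, 1 on day 7 and 26 on day 14, a day 7 over day 3 ratio of 0.0134 (0.000339 to 0.0755). Of 15 inflammatory cytokine genes, 8 were lower and none higher from day 3 to day 7, among them Tnf at 308, 115 and 88.9 CPM. Of all genes measured in members, 4.87% were lower and 6.95% higher at that step. In Cxcl9-negative cells Inhba was higher on day 7 than on day 3, at 132, 416 and 175 CPM. Cxcl3 went the other way in members, at 6.12, 33.6 and 47.6 CPM, a ratio of 5.48 (3.68 to 8.24) for day 7 over day 3 and 7.77 (5.38 to 11.4) for day 14 over day 3.

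Other day differences rested on few cells. Ccl17, a ligand of CCR4, stood at 3.13, 251 and 46.1 CPM, but 478 of its 500 UMIs of day 7 lay in 1 cell, and leaving out the top cell of each day changed its day 7 over day 3 ratio from 80.0 to 9.90. Its day 14 over day 7 ratio changed from 0.184 to 1.68 (0.973 to 2.98), which reverses the direction. Lyz1 had 68.4% of its day 7 UMIs in 1 cell, and its day 7 over day 3 ratio was 8.39 with that cell and 3.21 without. Cxcl1 had no UMI on day 7 and had 118 UMIs on day 14, 61.0% of them in 1 cell. Against a floor of 3 counts the Cxcl1 ratio was 37.7. By the interval's lower bound, which uses the count of 0, Cxcl1 was at least 30.2-fold higher, and at least 11.5-fold higher without that cell. Saa3, an acute-phase protein, had 206, 7 and 150 UMIs, with 42.2% and 37.3% of those of days 3 and 14 in 1 cell each.
Day 14 members also had more of some heat-shock and histone transcripts. Hspa1b, a heat-shock protein, stood at 255, 127 and 417 CPM and Hist1h1c, a linker histone, at 35.9, 49.1 and 132 CPM. Hspa1b UMIs were found in 77 of 612, 27 of 162 and 27 of 151 members, and in Cxcl9-negative cells its level was 362, 542 and 459 CPM. A single cell held 17.2% of the day 14 Hspa1b UMIs. Of 16 cell cycle genes measured, 9 were higher in members on day 14 than on day 3 and 1 lower. Of all genes measured, 8.39% were higher and 8.24% lower in that comparison. Mki67, a proliferation marker, had 34, 11 and 32 UMIs.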

How the data were processed

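Droplet libraries (10x Chromium 3', kit 3.1) were made from CD45+ tumour leukocytes, 1 library for each day, each pooling 3 mice. The authors deposited UMI counts, not normalized, for each gene in each barcode. The submitters' processing notes name Cell Ranger 4.0.0 and the mouse build mm10. Total counts per library were 33096709, 29547433 and 35742070 UMIs on days 3, 7 and 14. Barcodes needed at least 1500 UMIs and under 10% mitochondrial UMIs. The members and gene lists were chosen with earlier results of these data known.

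Counts were summed per group and library and divided by the group's total (Python 3.11.15, numpy 2.4.6, scipy 1.17.1, pandas 2.3.3, scikit-learn 1.9.0, matplotlib 3.10.9). Ratios with a count of 0 used a floor of 3 counts. TMM factors (edgeR 4.0.16, R 4.3.3) were used as an alternative only. No doublets were removed in the values reported; an alternative removed the highest doublet scores, 0.8% per 1000 cells. Other alternatives changed the cell filter, Cxcl9 threshold, depth, scaling, low-count limit, fold and comparison cells. Leaving out the cell with most UMIs of each gene was chosen after seeing the data.

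Named genes were the given markers, the 15 highest and 10 lowest by interval bound against Cxcl9-negative cells, the 6 highest and 6 lowest between each pair of days (at least 100 UMIs), up to 6 of each list by UMIs, and a set chosen by name. Genes outside these were chosen after their values were seen. Likeness took the 8 genes with the highest rank correlation in the library where it was lowest. The ratio and size rule were run on simulated Poisson counts, the model behind the intervals, which checks the calculation only. UMIs gathered in single cells were not simulated. Some genes of the lists are not reported here by name.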

Additional observations from a re-analysis of the deposited data

How the results depend on the processing

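The shares were highest on day 3 and lowest on day 14 under every alternative run. The day 3 share was 41.4% with no cell filter and 40.9% with at least 5 Cxcl9 UMIs, and thinning to 3000 UMIs gave 33.6%, 10.7% and 7.64%. Counts of genes below are higher and then lower. Thinning gave 95 and 60 genes over Cxcl9-negative cells in all 3 libraries, 210 and 226 for day 7 over day 3, 80 and 166 for day 14 over day 7, and 248 and 357 for day 14 over day 3. A 2-fold limit gave 48 and 120, 232 and 191, 113 and 142, and 309 and 268. The mean of per-cell CPM, with the fold alone, gave 500 lower genes over Cxcl9-negative cells, and 1166 and 875, 603 and 882, and 1281 and 1158 between days. With at least 100 UMIs, 397 genes were higher on day 7 over day 3, 73 higher and 288 lower on day 14 over day 7, and 444 higher on day 14 over day 3. Leaving out 1 library gave 193 to 293 higher and 334 to 474 lower genes. Without the top cell of each gene, day 7 over day 3 gave 487 and 554 and day 14 over day 3 gave 575 and 937.

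These ratios reversed. Ccl17 for day 14 over day 7 became 4.01 without shared barcodes, 3.21 after thinning and 1.68 without its top cells. After thinning, members over Cxcl9-negative cells became 0.943 for Ccl5 on day 14, 7.34 and 10.7 for Il12b on days 7 and 14, 1.17 for Slc7a2 on day 7 and 1.21 for Trem2 on day 7, and Vcam1 became 1.37 for day 14 over day 3. Against gate-matched cells, ratios became 1.70 for C1qa, 2.35 for Mki67 and 2.28 for Pmp22 on day 3, and 2.41 for Il12b, 2.41 for Ppbp and 1.61 for Slc7a2 on day 7. Without top cells Il12b on day 7 became 11.3. The cause was not tested, and Il12b and Ppbp rest on at most a few UMIs in members. No named ratio reversed under TMM or without mitochondrial and ribosomal genes. No paired analysis was possible because the days are different conditions with 1 library each, and pairing members with Cxcl9-negative cells of a library would test the contrast that chose them.

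With 162 and 151 members on days 7 and 14, genes with few UMIs could not be measured there, and each library pools 3 mice whose spread cannot be seen.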

Other observations

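Cells with at least 3 Cxcl9 UMIs were also found outside the rule. Among monocyte/macrophage cells, 104, 54 and 97 such cells on days 3, 7 and 14 missed another condition. Of these, 40, 20 and 50 held at least 5 Arg1 UMIs, 56, 27 and 43 held fewer than 10 Lyz2 UMIs, 15, 8 and 30 held at least 5 Pf4 UMIs and 20, 12 and 6 held Flt3, with overlaps. Among cells with Flt3, a receptor of dendritic cells, at least 3 Cxcl9 UMIs were found in 33.3% of 138, 26.5% of 117 and 13.3% of 135.

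With the genes of the rule left out, 72.5%, 39.3% and 41.1% of the 15 nearest neighbours of a Cxcl9-high cell were on average Cxcl9-high, against 44.2%, 16.2% and 11.2% of all monocyte/macrophage cells. For gate-matched cells the average was 34.0%, 13.5% and 10.5%. For Arg1-high cells without Cxcl9, which the rule bars by Arg1 too, it was 8.75%, 5.81% and 2.33%. Cells with 1 or 2 Cxcl9 UMIs lay between the Cxcl9-high and the gate-matched cells, at 41.6%, 21.0% and 19.9%. These values use the cells the rule was applied to and are a description.

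Cell cycle genes on day 3 depended on the comparison cells. Against all Cxcl9-negative cells 9 of 18 were lower and none higher, where 13.9% of all genes were lower and 5.55% higher. Against gate-matched cells 7 of 16 were higher and none lower, where 5.8% of all genes were higher and 8.58% lower. Glycolysis genes on day 3 had a median log2 ratio of 0.03 against all Cxcl9-negative cells and 0.54 against gate-matched cells.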
